A study of Mus musculus with 4 samples.

Results

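The 50 genes described here encode the machinery that takes a newly made secretory protein into the endoplasmic reticulum (ER), removes its signal peptide, attaches N-glycans and folds it. They were taken as a list of symbols rather than by a cut on their levels, but with earlier results of these data known. All 50 had counts among the 19290 genes detected in the matrix. Together they held 436374 of 125100595 unique molecular identifiers (UMIs, each 1 captured RNA molecule), or 0.349%. The study asked how the mouse submandibular gland (SMG) and sublingual gland (SLG) keep oral microbes in balance. Besides gland removal, bacterial sequencing, proteomics and PCR, it used single-cell sequencing to find cells that make antimicrobial proteins. Untreated wild-type female C57BL/6N mice aged 6 to 8 weeks gave both glands, which were digested into single cells together and sequenced from the 3′ end of the RNA. The labels list 4 samples and name 2 mice, the methods of the study give another number of mice, and the deposited data are 1 matrix of 15707 cells with 1 barcode suffix. No cell can therefore be assigned to a mouse, a gland or a sample, and no replicate exists. Intervals below are exact 95% intervals for counting error only, no test between classes was possible, and cells were not used as replicates.

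A secretory protein is first met on the ribosome by the signal recognition particle (SRP), which docks at its receptor on the ER. The chain then enters through the Sec61 channel, helped by the TRAP complex, is cut by signal peptidase and receives a glycan from oligosaccharyltransferase. Inside, chaperones, disulfide isomerases and prolyl isomerases fold it, and proteins that fail are sent back for degradation. Acinar cells of salivary glands are filled with rough ER and are a textbook case of this pathway.

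The classes were rebuilt from marker genes, so that their borders may differ from those of the study. Of 24 clusters, 19 gave named classes with 9597 cells. The 2180 serous acinar cells carried Lpo and Mucl2, the 365 mucous acinar cells carried Muc19 and A2ml1, and 509 cells were named Dcpp-rich after their leading genes, the demilune cell proteins. The comparison also used 2885 duct cells, 1234 lymphoid cells and 896 stromal cells. Among lymphoid cells, natural killer genes led a cluster of 1047 and T cell genes a cluster of 92. Cell-cycle genes led the remaining 95, which carried 9 of 14 lymphoid markers. In the lymphoid class 4 of 8 B and plasma cell markers, Cd79a, Ms4a1, Jchain and Mzb1, had 0 counts. The list held 400 UMIs there, or 1.55 per 10000 UMIs, of which Ighm had 303, Igha 84 and Igkc 9, against 0.0348 per 10000 for the list in serous cells and 25.5 in the myeloid class. Median UMIs per cell were 25898 in serous, 24948 in Dcpp-rich and 4901 in mucous cells, against 2735 in ducts, 1867 in lymphoid cells and 2200 in stroma. The other 6110 cells, 38.9% of all, lay in 5 shallow clusters that were left unnamed. The 14 variable genes that belonged to these 50 or to a longer list of ER genes were taken out before clustering, so that the classes were not built on them directly.

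The direction of the main comparison depended on what the ER genes were counted against. Per 10000 total UMIs, the summed level was 24.99 (24.87 to 25.12) in serous cells, 33.5 (33.2 to 33.8) in Dcpp-rich cells and 53.3 (52.6 to 54.0) in mucous cells. It was 65.45 (64.95 to 65.95) in ducts, 69.6 (68.6 to 70.6) in lymphoid cells and 60.6 (59.7 to 61.5) in stroma. On this scale the acinar classes were the lowest of the 6, with serous cells at the bottom.

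In acinar cells, however, a few secretory transcripts fill the library. The 10 largest transcripts of the matrix, Mucl2, Scgb1b27, Dcpp3, Scgb2b27, Dcpp2, Scgb2b26, Dcpp1, Pip, Prol1 and Car6, made up 90.8% of UMIs in serous, 85.5% in Dcpp-rich and 72.4% in mucous cells. They made up 17.1% in ducts, 16.0% in lymphoid cells and 41.3% in stroma. When the ER genes were counted against all other UMIs, here called residual UMIs, the order turned round. The summed level per 10000 residual UMIs was 271 (269 to 272) in serous, 230.2 (228 to 232) in Dcpp-rich and 193 (191 to 196) in mucous cells. It was 78.9 (78.3 to 79.5) in ducts, 82.9 (81.7 to 84.1) in lymphoid cells and 103 (102 to 105) in stroma. None of these intervals overlapped.

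**Figure D1:**
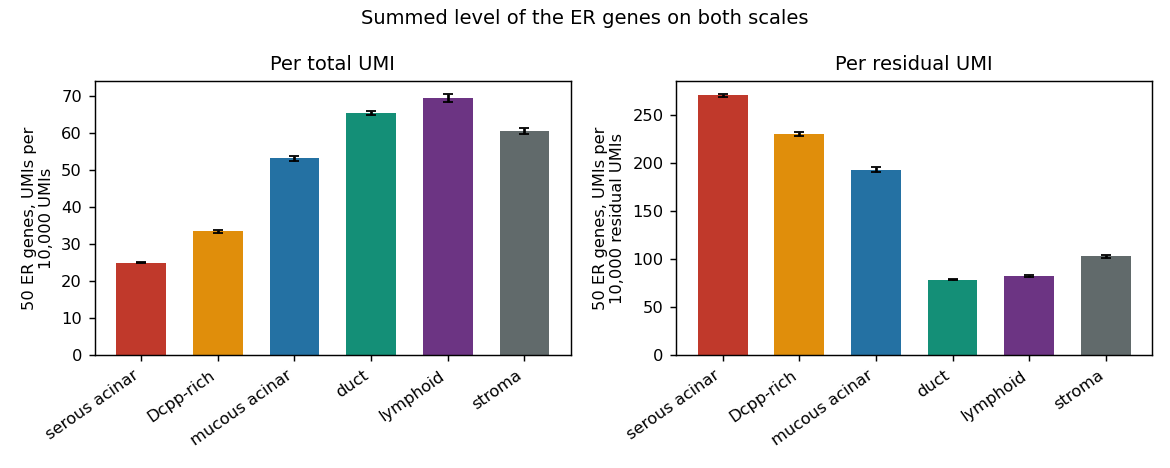
Summed level of the 50 ER genes in 6 cell classes, as UMIs per 10000 total UMIs (left) and per 10000 residual UMIs (right). Bars are class levels from summed counts and error bars are exact 95% Poisson intervals. Serous acinar cells are the lowest class on the left, at 24.99, and the highest on the right, at 271.

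Expressed against lymphoid cells, the residual level was 3.27-fold (3.22 to 3.32) in serous, 2.78-fold (2.73 to 2.83) in Dcpp-rich and 2.33-fold (2.28 to 2.38) in mucous cells. Ducts stood at 0.952-fold and stroma at 1.25-fold. Per total UMI the same ratios were 0.359 for serous, 0.481 for Dcpp-rich and 0.766 for mucous cells. The raw number of ER gene UMIs per cell, which grows with both cell size and capture, was 71.6 in serous, 80.8 in Dcpp-rich and 61.4 in mucous cells, and 23.0, 14.6 and 19.6 in ducts, lymphoid cells and stroma. Residual UMIs per cell differed less, at 2644 in serous and 1762 in lymphoid cells. Larger cells, more RNA per cell and better capture cannot be told apart in such counts. Free RNA, estimated at 507 UMIs a droplet, would account for 12.1% of the ER gene UMIs in lymphoid cells, 7.68% in ducts, 9.04% in stroma and 2.19% to 2.88% in the acinar classes.

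Single serous and lymphoid cells overlapped little on the residual scale. The 10th, 50th and 90th percentiles over cells were 183, 261 and 331 in serous cells and 46.6, 79.8 and 118 in lymphoid cells. In mucous cells they were 103, 187 and 237.

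Inside the acinar classes the level differed with depth, higher in the deepest than in the shallowest group per residual UMI and lower per total UMI. From the shallowest to the deepest of 4 equal groups of serous cells the residual level was 219, 256, 274 and 283 and the level per 10000 total UMIs 29.7, 27.7, 26.3 and 22.9, while the share of the 10 largest transcripts was 86.5%, 89.2%, 90.4% and 91.9%. In the Dcpp-rich class the residual level was 182, 228, 225 and 239.5, with the shallowest group lowest and the others close together, and the total level lay between 32.0 and 37.8. In the mucous class the residual level was 151, 174, 181 and 212, and the total level 75.6, 81.8, 72.8 and 42.9. The deepest mucous group, of 91 cells, had 79.7% of its UMIs in the 10 largest transcripts against 49.9% in the shallowest. Mucl2, a serous product, made up 29.1% of mucous UMIs, and Dcpp1 to Dcpp3 another 25.7%. Without that group the mucous class of 274 cells stood at 175 per 10000 residual UMIs and at 75.4 per 10000 total UMIs. The second value lay above the 69.6 of lymphoid cells, so the lower total-scale level of mucous cells rested on those 91 cells. The 2 largest unnamed clusters lay between the named acinar classes and the other named classes, at 159 for 2866 Dcpp-led cells and 154 for 2392 cells led by Prol1. The whole matrix stood at 142.

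**Figure D2:**
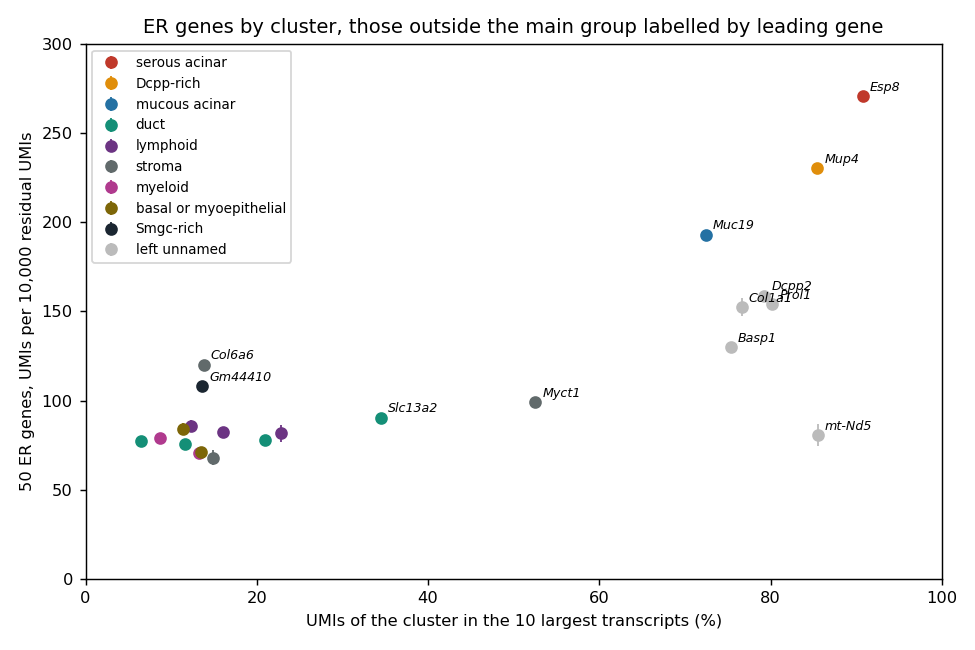
ER genes by cluster, for 23 clusters of at least 50 cells. The x axis is the percentage of a cluster's UMIs in the 10 largest transcripts, the y axis is the summed level of the 50 ER genes per 10000 residual UMIs, bars are exact 95% intervals, and colour is the cell class. The serous (Esp8), Dcpp-rich (Mup4) and mucous (Muc19) clusters are at 271, 230.2 and 193, while the unnamed cluster led by mt-Nd5 has 85.5% of its UMIs in those transcripts and an ER level of 80.5.

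By role, the ER genes did not differ between classes to the same degree. Per residual UMI in serous against lymphoid cells, the 2 prolyl isomerases were 10.6-fold, the 11 channel and TRAP genes 4.08-fold, the 4 signal peptidase genes 4.06-fold and the 10 disulfide isomerases and oxidase 3.80-fold. The 4 stress and degradation factors were 3.28-fold, the 3 genes of SRP and its receptor 2.40-fold, the 7 oligosaccharyltransferase genes 2.17-fold and the 2 lectin chaperones 2.16-fold. The 7 Hsp70 and Hsp90 chaperones with their partners were at the low end, at 1.69-fold. Mucous cells showed the same 2 ends, with 6.75-fold for the prolyl isomerases and 1.49-fold for the Hsp70 and Hsp90 group. In ducts the translocation, signal peptidase and oligosaccharyltransferase groups lay below lymphoid cells, at 0.826-, 0.721- and 0.736-fold. In Dcpp-rich cells the Hsp70 and Hsp90 group was higher than in serous cells, at 24.5 against 19.9 per 10000 residual UMIs, whereas the channel and TRAP group was lower, at 82.3 against 111.

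**Figure D3:**
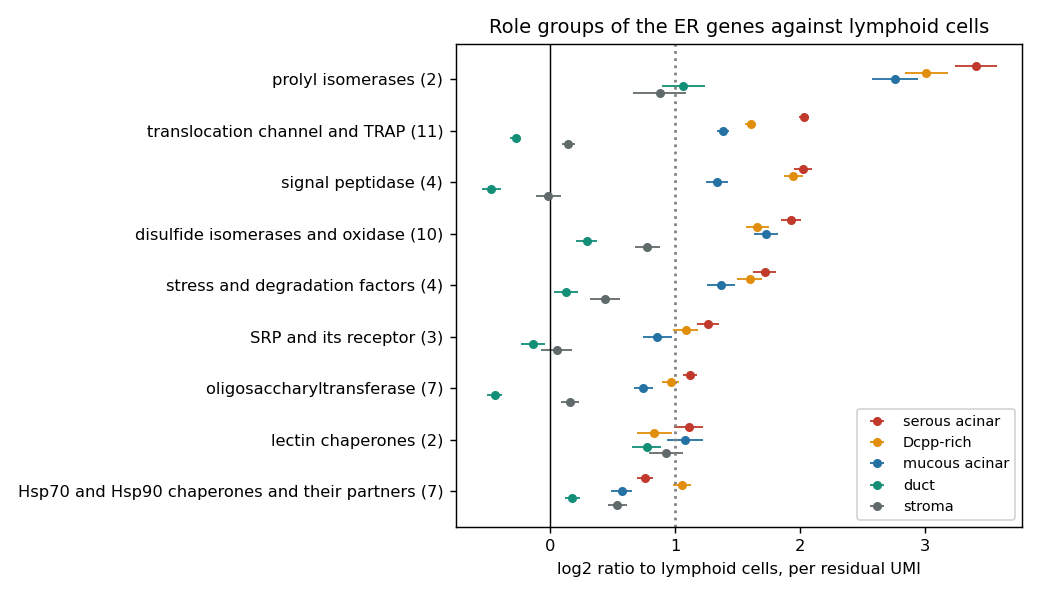
Role groups of the ER genes against lymphoid cells, as the log2 ratio of summed UMIs per residual UMI, with the number of genes in brackets. Points are classes, bars are exact 95% intervals, the solid line is no difference and the dotted line 2-fold. The acinar classes lie from 2.76 to 3.41 for prolyl isomerases and from 0.57 to 1.05 for the Hsp70 and Hsp90 group.

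Of 50 members, 35 were at least 2-fold higher in serous than in lymphoid cells per residual UMI, or 70.0%, against 34.1% of 10666 genes with at least 20 UMIs over both classes. The median log2 ratio was 1.55 for the members and 0.33 for all those genes. In Dcpp-rich cells 35 of 49 members were past 2-fold, against 24.0% of genes, with medians of 1.38 and -0.13. In mucous cells 31 of 50 were past it, against 29.5%, with medians of 1.28 and 0.17. No member was 2-fold lower in any acinar class, where 19.9% of genes were in serous, 27.4% in Dcpp-rich and 20.1% in mucous cells. Per total UMI the lower direction dominated, with 37 of 50 members at least 2-fold lower in serous cells, 29 of 49 in Dcpp-rich cells and 10 of 50 in mucous cells. On that scale 83.7%, 82.7% and 61.7% of all genes were also lower, and the serous medians were -1.64 for the members and -2.85 for all genes. Agr2 and Fkbp11 were 2-fold higher in serous cells even per total UMI, where 3.56% of genes were. The lymphoid reference had a large ribosomal protein share, 34.95% of its residual UMIs against 20.8% in serous, 15.5% in mucous and 10.2% in Dcpp-rich cells. The mitochondrial share of residual UMIs was 3.94% in lymphoid, 9.72% in serous, 5.26% in Dcpp-rich and 7.66% in mucous cells. With mitochondrial and ribosomal genes left out of the residual UMIs too, the log2 ratios of the sum to lymphoid cells were lower. They were 1.52 in serous, 1.005 in Dcpp-rich and 0.89 in mucous cells, against 1.71, 1.47 and 1.22 with those genes. Members past 2-fold were then 34 in serous, 22 in Dcpp-rich and 21 in mucous cells. The share of all genes past 2-fold is not given for that setting. The part of the ribosomal or the mitochondrial share alone was not tested.

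**Figure D4:**
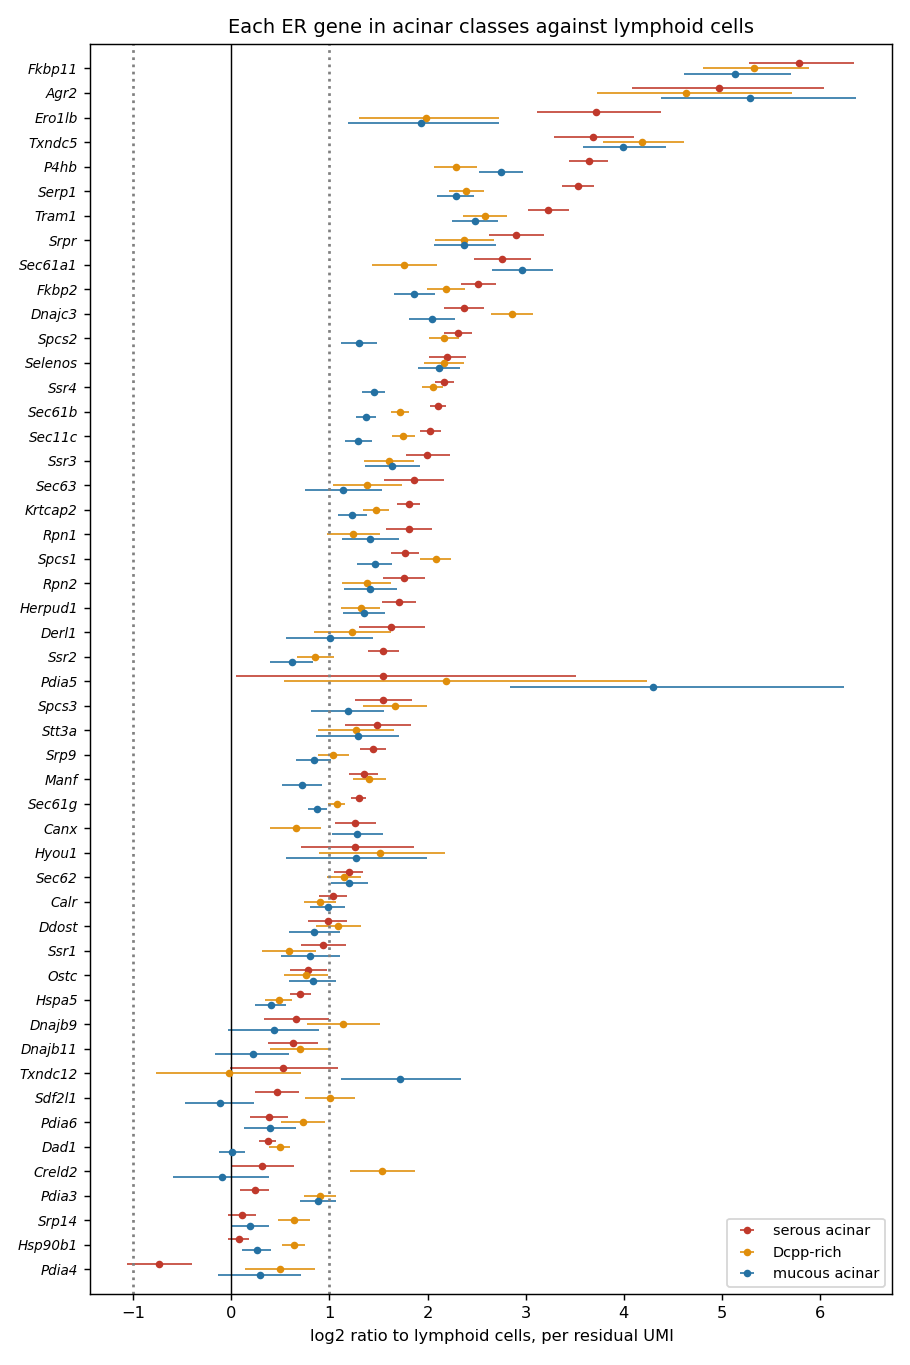
Each ER gene in acinar classes against lymphoid cells, as the log2 ratio per residual UMI, sorted by the serous value. Points are classes, bars are exact 95% intervals and dotted lines mark 2-fold. Serous values run from -0.73 for Pdia4 to 5.78 for Fkbp11.

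Fkbp11 and Agr2 had the largest ratios of serous to lymphoid cells. Fkbp11 (chr15:98724366-98728198, GRCm38) encodes a prolyl isomerase of the ER known from secretory cells. It had 7.85 UMIs per 10000 residual UMIs in serous, 5.70 in Dcpp-rich and 5.02 in mucous cells, and 0.358, 0.143 and 0.784 in ducts, lymphoid cells and stroma. Against lymphoid cells its log2 ratio was 5.78 (5.28 to 6.34) in serous and 5.14 (4.62 to 5.71) in mucous cells. Agr2 (chr12:35992907-36004087), a disulfide isomerase known for its part in mucin folding, was at 1.44 in serous, 1.14 in Dcpp-rich and 1.79 in mucous cells, against 0.0499 in ducts, 0.046 in lymphoid cells and 0.0707 in stroma. Its levels in serous and mucous cells lay close together, with a mucous to serous log2 ratio of 0.31 (0.09 to 0.54). In Smgc-rich cells Agr2 was at 0.635 and Fkbp11 at 0.648 per 10000 residual UMIs, and per 10000 total UMIs Agr2 was highest there, at 0.548 against 0.495 in mucous cells. The lymphoid values of these genes rested on 31 and 10 UMIs. Fkbp2, the other prolyl isomerase, was more widely present, with 7.45, 5.93 and 4.74 in the acinar classes and 2.67, 1.30 and 1.87 in ducts, lymphoid cells and stroma.

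The disulfide enzymes P4hb, Ero1lb and Txndc5 were also much higher in acinar than in lymphoid cells per residual UMI. Their highest class was serous or Dcpp-rich. Of the other disulfide genes, Pdia3, Pdia4, Pdia6, Txndc12 and Creld2 were not 2-fold higher in serous than in lymphoid cells. P4hb, the founding protein disulfide isomerase, stood at 12.2 in serous, 6.59 in mucous and 4.77 in Dcpp-rich cells, and at 2.17, 0.980 and 2.84 in ducts, lymphoid cells and stroma. Ero1lb, an oxidase that recharges these isomerases, was at 1.39 in serous, 0.420 in Dcpp-rich and 0.405 in mucous cells, against 0.106 in lymphoid cells. Txndc5 had the other order, with 4.44 in Dcpp-rich, 3.89 in mucous and 3.14 in serous cells, against 0.995 in ducts and 0.244 in lymphoid cells. Per residual UMI serous cells therefore held the most P4hb and Ero1lb, and Dcpp-rich cells the most Txndc5. Per total UMI Smgc-rich cells were highest for P4hb and Txndc5, and myeloid cells for Ero1lb.

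Per residual UMI, the scale of the values below, several general folding genes differed by less than 2-fold between serous and lymphoid cells. Hspa5, the main Hsp70 of the ER, stood at 6.28 in serous, 5.38 in Dcpp-rich, 5.08 in mucous, 4.44 in duct, 3.85 in lymphoid and 5.79 in stromal cells. Hsp90b1, the Hsp90 of the ER, ranged from 4.64 in lymphoid to 7.20 in Dcpp-rich cells, and its serous to lymphoid log2 ratio of 0.07 (-0.03 to 0.18) was within counting error. Pdia4 was the 1 member below lymphoid cells in serous cells, at 0.344 against 0.571, a log2 ratio of -0.73 (-1.06 to -0.40). Pdia3, the isomerase that works with the lectin chaperones, was at 2.74 in serous and 2.32 in lymphoid cells, and Pdia6 at 1.74 and 1.33. Calr and Canx, the lectins that hold glycoproteins, were just past 2-fold, with serous log2 ratios of 1.04 (0.90 to 1.18) and 1.26 (1.06 to 1.48). The 15 members under 2-fold in serous cells also included the Hsp70 partners Dnajb9, Dnajb11 and Sdf2l1. Dnajc3, another partner of Hspa5, was higher in acinar cells, with 7.37 in Dcpp-rich, 5.25 in serous and 4.20 in mucous cells, against 1.51, 1.02 and 2.39 in ducts, lymphoid cells and stroma. Hyou1, a large chaperone, ranged from 0.124 in stroma to 0.409 in Dcpp-rich cells.

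The members with the most counts were the small subunits of the translocation channel. Sec61b had 25.8 UMIs per 10000 residual UMIs in serous, 19.8 in Dcpp-rich and 15.5 in mucous cells, and 3.79, 6.01 and 5.17 in ducts, lymphoid cells and stroma. Sec61g had 19.3, 16.5 and 14.4 in the acinar classes and 5.77, 7.84 and 6.91 in the others. Ssr4, a TRAP subunit, had 20.2, 18.6 and 12.3, then 3.05, 4.48 and 4.30. In all 3 genes the 3 acinar classes lay above the other classes and ducts were lowest. Counts from the 3′ end do not depend on transcript length in the way of whole-transcript reads, but capture differs between genes and levels of different genes are not compared here. Part of the 3′ end of Sec61g, 34.7% of its 90-base windows, is shared with predicted genes, and so are 13.9% for Sec61b and 4.4% for Srpr, and reads from such windows cannot be assigned to 1 gene.

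On the same residual scale Sec61a1, the pore subunit itself, was highest in mucous cells at 3.84. It had 3.33 in serous, 1.67 in Dcpp-rich and 0.492 in lymphoid cells. Serp1, which binds the channel, was highest in serous cells at 17.4, with 7.87 in Dcpp-rich, 7.32 in mucous and 1.5 in lymphoid cells. Tram1, which helps chains enter the membrane, had log2 ratios of 3.23, 2.58 and 2.48 in serous, Dcpp-rich and mucous cells. The other TRAP genes, Ssr1, Ssr2 and Ssr3, had serous log2 ratios of 0.94, 1.55 and 2.00, and Sec62 and Sec63, which help chains that enter after their synthesis, had 1.20 and 1.86. Of the 11 genes of this group, 9 had their highest level in serous cells, and Sec61a1 and Sec62 in mucous cells. The share of all genes highest in serous cells was not computed.

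Signal peptidase genes were high in all 3 acinar classes. Sec11c, a catalytic subunit, had 14.5, 12.0 and 8.75 in serous, Dcpp-rich and mucous cells, against 1.99 in ducts, 3.56 in lymphoid cells and 2.12 in stroma. Spcs2 had 10.1, 9.16 and 5.03, against 1.67, 2.04 and 2.22. The non-catalytic Spcs1 and Spcs3 had their highest levels in Dcpp-rich cells, at 8.64 and 1.63, with 2.04 and 0.515 in lymphoid cells. Among oligosaccharyltransferase genes the subunits diverged. Dad1 was at 8.46 in serous and 6.55 in lymphoid cells, a log2 ratio of 0.37 (0.28 to 0.46), and its mucous to lymphoid ratio of 0.01 (-0.12 to 0.13) was within counting error. Krtcap2 was at 11.02 and 3.15, a log2 ratio of 1.81 (1.69 to 1.92). The subunits Rpn1, Rpn2 and Stt3a, the last of them catalytic, had serous log2 ratios of 1.81, 1.75 and 1.49, and Ddost one of 0.98. For SRP, which also acts in cells that secrete little, Srp14 was at 2.77 in serous and 2.57 in lymphoid cells and Srp9 at 6.60 and 2.43, while Srpr, which encodes the alpha subunit of the receptor, was at 3.91 and 0.525.

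Among stress and degradation factors, Selenos, a membrane selenoprotein of ER-associated degradation, was even across acinar cells, at 5.47, 5.35 and 5.16 in serous, Dcpp-rich and mucous cells, and lower elsewhere, at 1.55 in ducts and 1.19 in lymphoid cells. Herpud1 was at 4.68 in serous, 3.58 in Dcpp-rich, 3.66 in mucous and 1.44 in lymphoid cells. Manf, a soluble factor of the stress response, was at 5.01, 5.22 and 3.24 in the acinar classes and at 1.97 in lymphoid cells. Derl1, a channel for retrotranslocation, had log2 ratios of 1.63, 1.23 and 1.00 in the same classes.

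**Figure D5:**
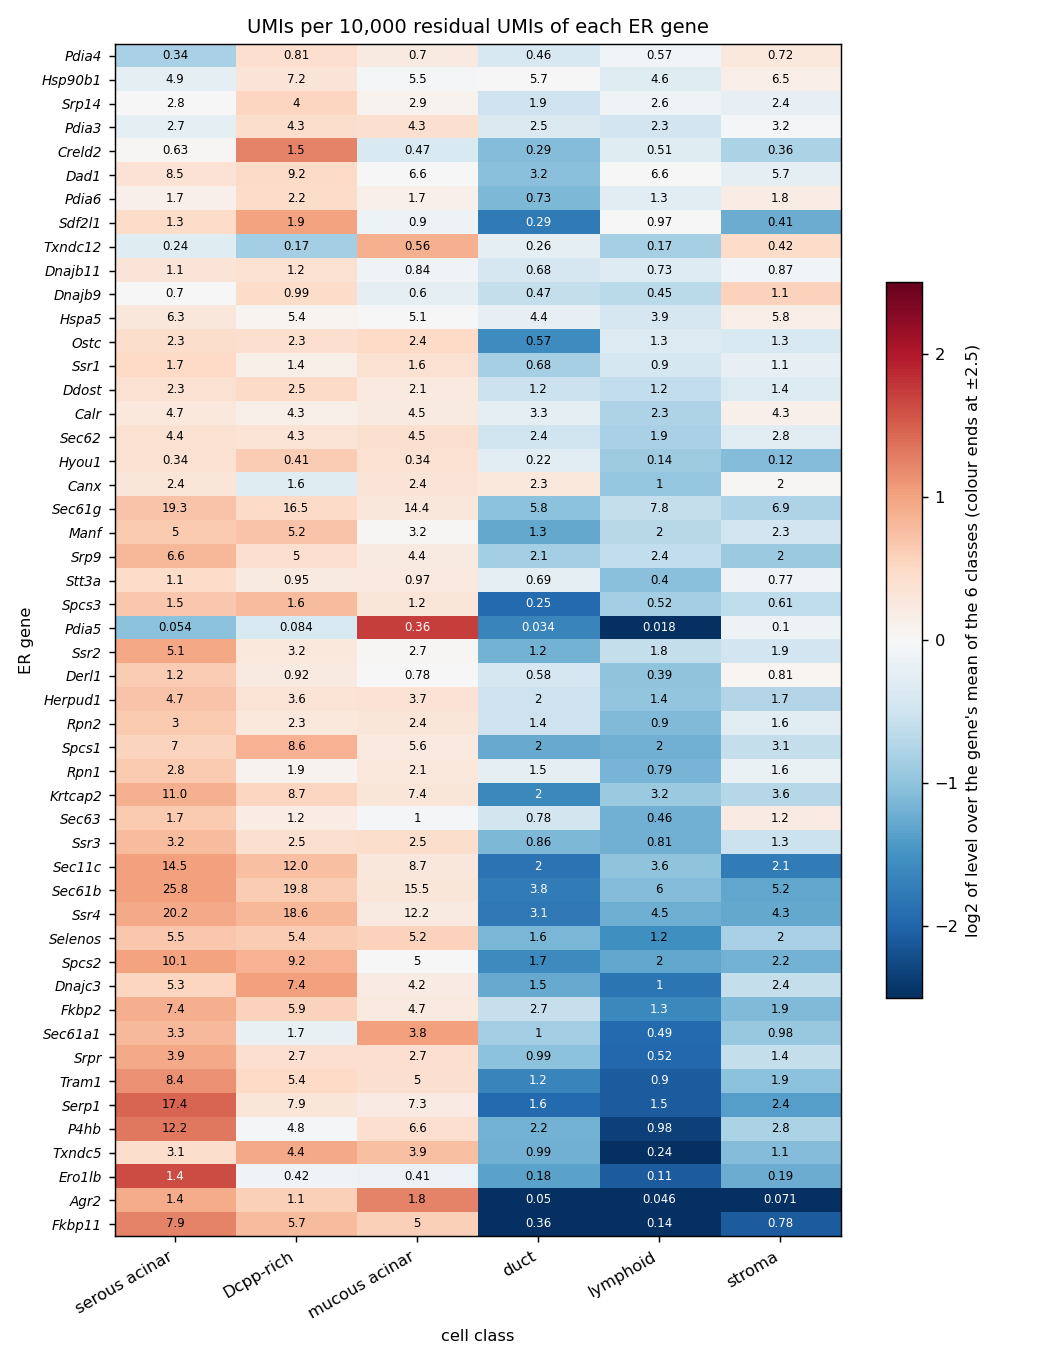
UMIs per 10000 residual UMIs of each ER gene (rows, in the order of the serous to lymphoid ratio) in 6 cell classes (columns). Numbers are levels, and colour is the log2 of the level over the gene's own mean across the classes. Serous cells are the highest class for 26 genes, Dcpp-rich cells for 16, mucous cells for 7 and stroma for 1, Dnajb9. The same shares over all genes were not computed.

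Per residual UMI serous cells were highest for 26 members. These included 9 of the 11 channel and TRAP genes, both prolyl isomerases, Hspa5, Calr, P4hb and Ero1lb. Dcpp-rich cells were highest for 16, which were Hsp90b1, Dnajb11, Dnajc3, Sdf2l1 and Hyou1 of the Hsp70 and Hsp90 group, the disulfide genes Pdia3, Pdia4, Pdia6, Txndc5 and Creld2, and Manf, Spcs1, Spcs3, Ddost, Dad1 and Srp14. Mucous cells were highest for Canx, Pdia5, Txndc12, Agr2, Sec61a1, Sec62 and Ostc. Several of these leads were within counting error, for example Sec62 at 4.47 in mucous and 4.45 in serous cells. Per total UMI neither serous nor Dcpp-rich cells were highest for any member, and the 233 Smgc-rich cells were highest for 22. That class had 13.6% of its UMIs in the 10 largest transcripts and an ER level of 93.2 per 10000 total UMIs, the highest of the 9 named classes except the fibroblast cluster within stroma at 104. Per residual UMI it stood at 108 (106 to 110). The share of all genes highest in each class was not computed. The counts by highest class therefore show nothing particular to ER genes.

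Promoters of some members carry known ER stress elements. RefSeq promoter windows of GRCm38.p6, from 250 bases before to 50 bases after each start, were matched for 41 of 50 members. The ER stress response element (ERSE), CCAAT followed after 9 free bases by CCACG, is read by ATF6 with the factor NF-Y. It was found on either strand in windows of 8 members, or 19.5%, and in 0.137% of 27025 genes. The 8 were Hspa5, Hsp90b1, Calr, Canx, Pdia6, Ero1lb, Dnajc3 and Creld2. ERSE-II, ATTGG followed after 1 free base by CCACG, occurred in Dnajb11, Herpud1 and Krtcap2, or 7.32% against 0.0444% of genes. UPRE, TGACGTGG, which XBP1 can bind, occurred in Txndc5, or 2.44% against 0.714%. Among 73 matched ER genes listed apart from the 50, ERSE was found in 2, ERSE-II in 0 and UPRE in 5. ERSE and ERSE-II end in the same letters, and no member had both. A match is a match of letters, not a bound site.

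The windows below show, 5′ to 3′ on the strand of the gene, the element in capitals for 3 chaperones with serous to lymphoid log2 ratios of 0.07 to 1.04, Hspa5, Hsp90b1 and Calr, and for 3 members with ratios of 2.37 to 3.71, Dnajc3, Ero1lb and Txndc5. In GRCm38 the elements lie before the RefSeq start of the window in which they were found, but the printed windows of Hspa5 and Txndc5 lie inside the gene as GENCODE draws it. In Hsp90b1, Calr and Ero1lb the capitals read the element on the opposite strand.
Hspa5, chr2:34772020-34772048: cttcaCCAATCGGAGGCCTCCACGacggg
Hsp90b1, chr10:86705513-86705571: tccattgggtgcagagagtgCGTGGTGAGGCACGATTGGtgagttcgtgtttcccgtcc
Calr, chr8:84847055-84847113: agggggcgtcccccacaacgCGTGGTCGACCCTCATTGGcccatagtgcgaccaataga
Dnajc3, chr14:118937807-118937865: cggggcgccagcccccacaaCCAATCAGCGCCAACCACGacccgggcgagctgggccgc
Ero1lb, chr13:12565662-12565720: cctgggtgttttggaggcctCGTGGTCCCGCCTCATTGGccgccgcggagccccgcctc
Txndc5, chr13:38528034-38528063: ggcctcgccgcTGACGTGGcgctagccgcc

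The median serous to lymphoid log2 ratio was 0.87 for the 8 members with ERSE and 1.75 for the 33 matched members without it. In Dcpp-rich cells these medians were 0.81 and 1.38, and in mucous cells 0.69 and 1.35. The range within the 8 was wide, from 0.07 for Hsp90b1 to 3.71 for Ero1lb. The elements were searched after these levels were known.

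Per residual UMI, mucous and serous cells differed in few members by 2-fold. Pdia5, Txndc12 and Pdia4 were higher in mucous cells, where 9.98% of genes were, and Ero1lb, Serp1 and Spcs2 were lower, where 6.88% were. Pdia5 (chr16:35397312-35490873), a disulfide isomerase, had 42 UMIs in mucous and 31 in serous cells, or 0.362 and 0.0538 per 10000 residual UMIs, a log2 ratio of 2.75 (2.05 to 3.47). It was the rarest member, with 170 UMIs in the matrix. Txndc12 was at 0.560 against 0.245 and Pdia4 at 0.698 against 0.344, log2 ratios of 1.20 and 1.02. Ero1lb had a log2 ratio of -1.78 (-2.23 to -1.35) and Serp1 one of -1.25 (-1.35 to -1.15). The median over the members was -0.36, against -0.05 for all genes. Without the 91 deepest mucous cells the same 3 members were 2-fold higher, the log2 ratio of Pdia5 was 3.40, and 8 members were 2-fold lower: P4hb, Ero1lb, Sdf2l1, Ssr2, Ssr4, Spcs2, Serp1 and Sec11c. Of all genes 11.1% were then higher and 11% lower.

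Between Dcpp-rich and serous cells, Pdia4 and Creld2 were at least 2-fold higher, where 5.66% of genes were, and Ero1lb, P4hb and Serp1 were lower, where 16.9% were. Creld2, a stress-induced partner of disulfide isomerases, was at 1.47 in Dcpp-rich and 0.630 in serous cells, a log2 ratio of 1.22 (0.98 to 1.45). Pdia4 was at 0.806 and 0.344, a ratio of 1.23 (0.91 to 1.55). P4hb had a ratio of -1.35 (-1.46 to -1.25) and Ero1lb one of -1.73 (-2.09 to -1.38). Per residual UMI, P4hb, Ero1lb and Serp1 were thus higher in serous cells than in both other acinar classes. The levels of those classes were 0.292- to 0.540-fold of the serous ones.

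Duct cells were close to lymphoid cells in the sum, and members were 2-fold apart less often than genes at large in both directions. Canx, P4hb, Txndc5, Fkbp11, Fkbp2 and Sec61a1 were at least 2-fold higher in ducts, 6 of 50 members against 36.4% of genes, and Sdf2l1, Spcs3, Dad1 and Ostc were 2-fold lower, 4 of 50 against 14.2%. Txndc5 had the largest ratio, 2.03 (1.63 to 2.46) on the log2 scale, and Sdf2l1 the smallest, -1.76 (-2.03 to -1.49). The duct clusters were close to each other. The Ascl3 and Foxi1 cluster stood at 75.8 per 10000 residual UMIs and the kallikrein-rich clusters, whose product is secreted too, at 78.1 and 77.4. The Slc13a2 and Slc9a3 cluster stood at 90.4, with 34.5% of its UMIs in the 10 largest transcripts against 6.46% to 20.98% in the others.

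In stroma 11 of 50 members were at least 2-fold higher than in lymphoid cells, against 38.6% of genes. Fkbp11, Pdia5, Txndc5, P4hb and Sec63 led, with log2 ratios from 1.39 to 2.46, and 1 member, Sdf2l1, was 2-fold lower at -1.24, against 10.7% of genes. The clusters differed. Fibroblasts, which make collagen, stood at 120.2 (117 to 123) per 10000 residual UMIs, the vascular cluster at 99.2 (97.2 to 101) and pericytes or smooth muscle at 68.0 (64.0 to 72.2). In the vascular cluster 52.5% of UMIs were in the 10 largest transcripts and 18.5% in Dcpp1 to Dcpp3, which are acinar products, and the part of acinar RNA in its ER level was not tested. In fibroblasts, where 13.8% of UMIs were in those transcripts, the lectin chaperones were 2.70-fold of lymphoid cells, whereas the signal peptidase genes were 0.974-fold.

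Many other genes of the pathway, listed apart from the 50, were also higher in acinar cells. Of 88 such genes, 52 of 82 with enough counts were at least 2-fold higher per residual UMI in serous than in lymphoid cells, 46 of 82 in Dcpp-rich and 51 of 82 in mucous cells, against 18 of 83 in ducts and 31 of 84 in stroma. The shares over all genes were 34.1%, 24.0%, 29.5%, 36.4% and 38.6% in the same order, so that ducts were below and stroma near theirs. Genes of ER exit, which load cargo for the Golgi, were past 2-fold in 20 of 21 cases in serous, 18 of 21 in Dcpp-rich and 19 of 21 in mucous cells, with Lman2, a cargo lectin, the lowest in each. Kdelr3, a receptor that returns chaperones to the ER, had serous, Dcpp-rich and mucous log2 ratios of 5.15, 4.17 and 5.63, on 4 UMIs in lymphoid cells. Among glycosylation genes 9 of 16 were past 2-fold in serous cells, led by Gmppb at 3.27 and Dpagt1 at 2.73, which act in making the glycan donor, while Tusc3, a subunit of one form of oligosaccharyltransferase, stood at -1.70. Folding genes outside the 50 were past it in 6 of 18 cases in serous, 6 of 18 in Dcpp-rich and 9 of 18 in mucous cells, with Selenom at 3.71, 5.04 and 4.12. The serous count was near the 34.1% of all genes, and Dnajc10 and P4ha1 were at least 2-fold lower there. Of the degradation and stress genes 13 of 20, 11 of 20 and 12 of 20 were at least 2-fold higher in the same 3 classes. Derl3, a degradation factor, had 5.55, 4.24 and 3.93. Xbp1, the transcription factor that drives ER growth, was at 6.70 in serous, 13.7 in Dcpp-rich, 8.19 in mucous and 0.819 in lymphoid cells.

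Among folding genes outside the 50, Dnajc10, an ER disulfide reductase, stood at 3.46 in mucous and 0.0590 in serous cells per 10000 residual UMIs, a log2 ratio of 5.87 (5.37 to 6.42), and at 0.840 in Dcpp-rich cells. As a listed ER gene it was not used directly to form the clusters. It was also among the 10 leading genes of the mucous cluster, ranked on the same counts, so that rank is not separate evidence. P4ha1, a collagen prolyl hydroxylase, had its largest ratio to lymphoid cells in stroma, at 2.49. Its serous ratio was -1.82 (-2.89 to -0.78), on 15 UMIs.

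Across 23 clusters of at least 50 cells, most members followed the sum of the other members. The rank correlation was 0.967 for Krtcap2, 0.906 for Ssr2 and 0.892 for Spcs2, and lowest for Pdia4 at 0.125, Dnajb9 at 0.165 and Txndc12 at 0.231. Of 6320 genes outside both lists with at least 500 UMIs, the 10 with the most similar pattern were Qsox1 (0.934), Ufc1 (0.905), Plpp5 (0.900), Cope (0.896), Sra1 (0.880), Srm (0.879), Insig1 (0.874), Nans (0.873), Tmem214 (0.872) and Bckdk (0.871). Qsox1 encodes a secreted sulfhydryl oxidase and Cope a coat protein of Golgi vesicles. Clusters come from 1 library and share its free RNA, so these values are descriptions.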

How the data were processed

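The authors deposited 1 filtered matrix of UMI counts per gene and cell, unnormalized, for 4 labelled samples. Their processing notes name Cell Ranger 6.0.1, Seurat 4.1.1 and the mm10 build. All 15707 barcodes were kept and clustered with Seurat 5.3.0 in R 4.3.3 (log-normalization to 10000, 1986 variable genes, 20 principal components, resolution 0.5). A cluster was named where at least 3 of its markers were found in at least 25% of cells, except the Smgc-rich one, named from its leading genes. Clusters with a median under 500 genes stayed unnamed. Scrublet, run through scanpy 1.11.5, called 0 of 15707 cells doublets, so that the caller did not work and no cell was removed.

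Counts were summed per class with scipy 1.17.1. Residual UMIs leave out the 10 largest transcripts. A gene was counted as different at 2-fold, with at least 20 UMIs over both classes and a count of 0 set to 3. Named singly were the 2 members with most UMIs in each role, the 5 largest and 3 smallest ratios to lymphoid cells, and the 5 largest and smallest between acinar classes, and other members were added after their values were seen. Members, lists and tests were chosen with earlier results of these data known. Promoters and positions are those of RefSeq and GENCODE M21 on GRCm38. Motifs were chosen after the levels were known. The counting code was tested on simulated data. Alternatives, with their effect given in the closing section, changed the clustering, the cells kept, the transcripts left out and the correction for free RNA.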

Additional observations from a re-analysis of the deposited data

How the results depend on the processing

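With 1 matrix, no setting could leave out a replicate, and the spread between mice is unknown. No paired analysis was possible because the columns carry no sample or replicate number. Of 175 recomputed values 114 moved by less than their counting interval or kept within 1.5 times a count, 54 moved by more and 7 changed sign. No alternative changed the sign of the residual ratio to lymphoid cells in the serous, Dcpp-rich or mucous class. Resolution 0.3 gave no Dcpp-rich class. Values below are log2 ratios of the sum to lymphoid cells, residual unless called total, and 3 alternatives (without the vascular cluster, without the 91 deepest mucous cells, and only duct, lymphoid and stromal cells under 50% in the 10 largest transcripts) were chosen after seeing the data. Counts of members past 2-fold stand below without the share of all genes at the same setting. They cannot be read against the shares given above. The cause of these shifts was not tested.

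Serous: 1.672 with 30 components, 1.658 as a mean over cells, 1.825 after free RNA, 1.502 with shallow clusters joined and 1.522 without mitochondrial and ribosomal genes. Serous total: -1.504 at resolution 0.3, -1.502 with filtered cells (at least 200 genes, at most 20% mitochondrial), -1.354 as a mean, -1.652 after free RNA, -1.424 joined and -1.501 with cells under 50%. Dcpp-rich: 1.434 as a mean, 1.578 after free RNA, 1.232 joined, 1.796 without the 50 largest transcripts, 1.861 without each class's own 10 and 1.005 without mitochondrial and ribosomal genes, where 22 members were past 2-fold. Dcpp-rich total: -0.9974 as a mean and -1.221 after free RNA. Mucous: 1.26 and 1.283 at resolutions 0.3 and 0.8, 1.297 with 10 components, 1.251 with ER genes kept, 1.121 as a mean, 1.32 after free RNA, 1.284 and 1.155 without the 50 largest and own 10, 0.8902 without mitochondrial and ribosomal genes and 1.076 without the deepest cells. Mucous total changed sign with 10 components (0.2763), 30 components (0.1895), as a mean (0.03859) and without the deepest cells (0.1164), and was -0.3491 with ER genes kept and -0.5272 after free RNA.

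Duct: -0.1277 with 10 components, -0.0319 with filtered cells, -0.03928 after free RNA, -0.3777 without mitochondrial and ribosomal genes and -0.1099 with cells under 50%, and above 0 without the 50 largest (0.06291) or own 10 (0.1205). Duct members past 2-fold: 11 after free RNA and 2 without mitochondrial and ribosomal genes. Stroma: 0.2067 at resolution 0.8, 0.1987 and 0.3702 with 10 and 30 components, 0.3623 with ER genes kept, 0.4187 with filtered cells, 0.3685 as a mean, 0.3635 after free RNA, 0.3991 joined, 0.2114 and 0.2679 without the 50 largest and own 10, 0.3926 without the vascular cluster, 0.1764 with cells under 50%, and -0.08061 without mitochondrial and ribosomal genes. Stroma members past 2-fold: 7 at resolution 0.8, 18 with filtered cells and 4 without mitochondrial and ribosomal genes.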

Other observations

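The 233 Smgc-rich cells, led by Gm44410, Col11a1 and Smgc, were compared with lymphoid cells too. Their summed ER level was 1.30-fold (1.27 to 1.34) of lymphoid cells per residual UMI and 1.34-fold (1.31 to 1.38) per total UMI, so that both scales gave the same direction. Prolyl isomerases were 2.22-fold, channel and TRAP genes 1.64-fold and signal peptidase genes 1.46-fold, whereas the Hsp70 and Hsp90 group was 0.695-fold. Prolyl isomerases were also the highest and the Hsp70 and Hsp90 group the lowest of the roles in serous cells. Hspa5 was at 2.10 per 10000 residual UMIs in these cells and at 3.85 in lymphoid cells. These cells had 13.6% of their UMIs in the 10 largest transcripts.

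The myeloid class stood at 72.1 per 10000 residual UMIs and at 63.3 per 10000 total UMIs, and was the highest of the 9 classes per total UMI for Hspa5, Pdia3, Pdia6, Ero1lb, Sdf2l1 and Herpud1. It also held 6833 UMIs of the 8 markers of B and plasma cells, among them 5109 of Igkc and 440 of Jchain, and their part in these levels was not tested. The basal or myoepithelial class stood at 74.5 and 64.8 on the same scales. Among the unnamed shallow clusters, the 457 cells led by Basp1 carried 6 of 13 myeloid and 7 of 11 serous markers. They stood at 130 per 10000 residual UMIs, with 75.4% of UMIs in the 10 largest transcripts. The 300 cells led by Col1a1 stood at 153, with 76.6%.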
